A study of Mus musculus with 12 samples.

Results

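The 9 genes described here make glutathione, return it to its reduced form, bring its precursors into the cell or use it against peroxides: Gclc, Gclm, Gss, Gsr, Slc7a11, Oplah, Ggct, Gpx2 and Gpx3. They were chosen by name with earlier results of these data known, so counts set beside shares of all genes are description only. All 9 were among the 18193 genes that a probe set naming a single gene represented on the arrays. They had 16 such probe sets of 45101 in all, and each gene was read from the one with the highest mean over the arrays (the main probe set). Each of 12 arrays measured liver RNA of male mice, in 4 groups of 3, namely wild type with vehicle, wild type with CDDO-Im, Nrf2 null with vehicle and Nrf2 null with CDDO-Im. CDDO-Im, a synthetic triterpenoid that activates the transcription factor Nrf2, was labelled as given by gavage at 30 uM/kg, vehicle mice received 0 uM/kg by the same route, and the labels give 6 hours for all groups. The null mice are labelled as Nrf2 knockouts. Strain, age, the vehicle and the construction of the null allele are not given in the sources used here, nor is whether each array came from a separate mouse. The p-values therefore reflect only how these samples vary, which may be technical. A bracketed digit of unstated meaning stands in the 6 vehicle titles and in no CDDO-Im title, so its effect and that of the compound cannot be told apart.

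Glutathione is a tripeptide of glutamate, cysteine and glycine. Glutamate-cysteine ligase, a catalytic subunit (Gclc) joined to a modifier subunit (Gclm), performs the rate-limiting step, and glutathione synthetase (Gss) adds glycine. Glutathione peroxidases oxidise glutathione while they remove peroxides, and glutathione reductase (Gsr) reduces it again with NADPH. Nrf2 raises transcription of several of these genes through the antioxidant response element, and the liver is the main source of glutathione in the blood.

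Promoters were available here for 6 of the 9 genes, as 250 bases before to 50 bases after the start (RefSeq, GRCm38.p6). The core of the antioxidant response element, TGACNNNGC on either strand, was found in those of Gclm and Ggct, and in 12.4% of 32851 mouse promoters of the same length. The AP-1 type motif TGACTCA was in none of the 6 and in 5.20% of all. Both promoters that hold the core are shown 5′ to 3′ with its letters in capitals. Gclm is the only gene of those that rose in wild type livers whose promoter was at hand (chr3:122245307-122245606, + strand), and its match starts 134 bases before the gene start, on the opposite strand, where it reads TGACGGTGC. Ggct (chr6:54992818-54993117, - strand) has a match on the opposite strand 174 bases before the start, read there as TGACGTCGC, and TGACGCTGC on the gene's own strand 5 bases after it. No TGACTCA match overlaps these letters. A match is a run of letters only.
Gclm: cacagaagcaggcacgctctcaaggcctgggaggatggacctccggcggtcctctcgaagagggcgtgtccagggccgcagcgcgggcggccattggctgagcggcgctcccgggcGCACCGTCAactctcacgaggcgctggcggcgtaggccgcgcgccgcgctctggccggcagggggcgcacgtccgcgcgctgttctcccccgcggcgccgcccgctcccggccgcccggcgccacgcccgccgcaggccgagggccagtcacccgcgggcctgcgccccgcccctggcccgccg
Ggct: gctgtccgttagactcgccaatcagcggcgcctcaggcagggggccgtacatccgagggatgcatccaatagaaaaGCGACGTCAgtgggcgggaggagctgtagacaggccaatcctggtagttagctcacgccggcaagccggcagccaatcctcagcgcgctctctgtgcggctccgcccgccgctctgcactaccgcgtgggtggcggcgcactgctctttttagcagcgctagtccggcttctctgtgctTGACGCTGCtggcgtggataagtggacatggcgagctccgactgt

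All values are log2 intensities, and differences are in log2 units. The array medians lay between 5.77 and 5.83. Hepatocyte markers read above the array median in 8 of 8 cases on each of the 12 arrays. Nfe2l2 (Entrez Gene 18024), which encodes Nrf2, read 8.37 to 9.14 on the 6 wild type arrays and 4.44 to 4.96 on the 6 Nrf2 null arrays, without overlap, by its main probe set. Its other probe set read 4.63 to 5.19, below the array median on all 12 arrays, and was not called between genotypes (0.14 under vehicle and 0.24 under CDDO-Im). Pancreatic acinar markers, of which 8 of 11 were measured, had a median deviation from their 12-array means of 3.39 in wild type vehicle replicate 3 and 1.78 in Nrf2 null vehicle replicate 2, while the other 10 arrays lay between -0.71 and -0.47. Over the 12 arrays the same measure ran from -0.08 to 0.09 for hepatocyte markers, -0.64 to 0.49 for Kupffer cells, -0.18 to 0.25 for neutrophils, -0.11 to 0.11 for cholangiocytes, -0.34 to 0.13 for adipocytes, -0.36 to 0.14 for sinusoidal endothelium and -0.15 to 0.16 for erythroid cells.

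In wild type livers CDDO-Im raised 3 of the 9 genes, the ligase subunits Gclc and Gclm and the reductase Gsr. Across all genes 1.82% were called in this comparison and 0.978% were called higher (Benjamini-Hochberg adjusted p under 0.05 by limma). None of the 9 was called lower, where 0.846% of all genes were. An unadjusted p under 0.05 was found for 5 of the 9 (Gclc, Gclm, Gss and Gsr higher, Ggct lower) and for 13.6% of all genes. For 6 of the 9 the CDDO-Im and vehicle arrays did not overlap (Gclc, Gclm, Gss, Gsr and Oplah higher, Ggct lower), and for all genes the share was 16.6%, with 8.42% higher and 8.18% lower. The median difference was 0.27 over the 9 genes and 0.01 over all genes.

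In Nrf2 null livers CDDO-Im raised Gclc, 1 of the 9, where 5.90% of all genes were called, 3.58% higher and 2.32% lower. Its arrays were also the only ones of the 9 that did not overlap between treatments, against 23.1% of all genes (11.6% higher and 11.4% lower). An unadjusted p under 0.05 was found there for 2 of the 9 (Gclc and Gclm) and for 19.4% of all genes. The median difference was 0.02 over the 9 genes. Under CDDO-Im the same 3 genes, Gclc, Gclm and Gsr, were lower in Nrf2 null than in wild type livers, where 1.45% of all genes were called, 0.824% lower and 0.621% higher. Arrays did not overlap there for 4 of the 9, all lower (these and Oplah), and for 16.8% of all genes, 7.82% lower and 9.01% higher. The same 4 had an unadjusted p under 0.05, as had 11.3% of all genes. Under vehicle limma called 0 of the 9 between genotypes, where 0.390% of all genes were called (0.115% higher and 0.275% lower), and 3 had an unadjusted p under 0.05 (Gclc, Gclm and Gss), as had 13.2% of all genes. The arrays of the same 3 did not overlap, Gclc and Gclm lower and Gss higher, against 17.0% of all genes (8.49% lower and 8.55% higher). Each genotype comparison shares its arrays with the treatment comparisons. The CDDO-Im effect itself differed between genotypes by limma's interaction test for 1 of the 9, Gsr. Of all genes 0.137% were called there, 0.126% with a higher and 0.0110% with a lower effect in wild type. An unadjusted p under 0.05 in that test was found for 4 of the 9 (Gclc, Gclm, Gss and Gsr) and for 7.1% of all genes.

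**Figure D1:**
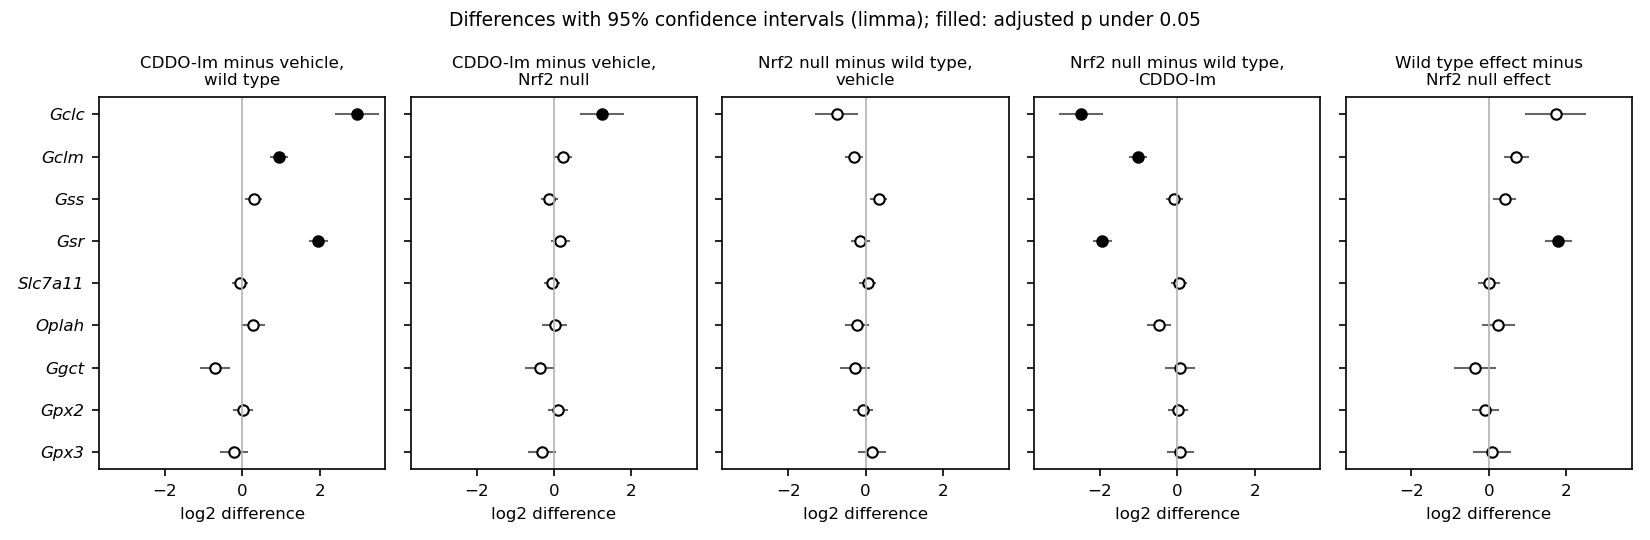
Log2 differences of the 9 genes (points) with 95% confidence intervals (lines) in 5 comparisons, from limma over all 12 arrays; filled points had an adjusted p under 0.05. In wild type and between genotypes under CDDO-Im the filled points are Gclc, Gclm and Gsr, in Nrf2 null livers Gclc alone, under vehicle none, and for the difference between the effects Gsr alone.

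Gclc (Entrez Gene 14629, chromosome 9), the catalytic subunit of the ligase, read 9.13, 9.29 and 9.60 in wild type with vehicle and 12.16, 12.28 and 12.48 with CDDO-Im. The treated arrays lay far above the others, a difference of 2.97 ± 0.25 (SE, n = 3 per group, limma adjusted p = 6.52e-05). In Nrf2 null livers it read 8.22, 8.58 and 8.96 with vehicle and 9.20, 10.10 and 10.17 with CDDO-Im. Those groups did not overlap either, although CDDO-Im replicate 1 lay close to the highest vehicle array, and the difference was 1.23 ± 0.25 (SE, 2.35-fold, limma adjusted p = 0.0171). That call was lost without Nrf2 null vehicle replicates 1 or 2 or Nrf2 null CDDO-Im replicates 2 or 3 (adjusted p = 0.0758, 0.0572, 0.0705 and 0.079), with differences of 1.05, 1.23, 1.09 and 1.06. Under CDDO-Im Gclc was 5.59-fold lower in Nrf2 null than in wild type livers (-2.48 ± 0.25, SE, limma adjusted p = 0.000273).

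The 4 groups ranked by their Gclc mean were Nrf2 null vehicle at 8.59 ± 0.37 (SD, n = 3), wild type vehicle at 9.34 ± 0.24, Nrf2 null CDDO-Im at 9.82 ± 0.54 and wild type CDDO-Im at 12.31 ± 0.16. Treated null livers overlapped wild type vehicle livers, while under vehicle every null array was below every wild type array, with a difference of -0.75 ± 0.25 that did not pass (SE, limma adjusted p = 0.215). The effect of CDDO-Im was 1.73 ± 0.35 larger in wild type than in Nrf2 null livers (SE, 95% confidence interval 0.97 to 2.50), which did not pass over all genes (limma adjusted p = 0.155). A second probe set of Gclc gave 2.55 ± 0.20 in wild type (SE, limma adjusted p = 3.6e-05 over all probe sets) and 1.07 ± 0.20 in Nrf2 null livers (adjusted p = 0.0163).

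Gclm (Entrez Gene 14630, chromosome 3), the modifier subunit that raises the ligase's affinity for glutamate and eases its inhibition by glutathione, read 10.77, 10.55 and 10.63 in wild type with vehicle and 11.50, 11.64 and 11.62 with CDDO-Im. The groups stood apart with little spread inside them, and the rise was 0.94 ± 0.10 (SE, 1.92-fold, limma adjusted p = 0.000309). Null livers read 10.19, 10.39 and 10.45 with vehicle and 10.41, 10.69 and 10.62 with CDDO-Im. These groups overlapped, and the difference of 0.23 ± 0.10 did not pass (SE, limma adjusted p = 0.204). Under CDDO-Im Gclm was 2.02-fold lower in the null (-1.01 ± 0.10, SE, limma adjusted p = 0.000193). Under vehicle every null array was below every wild type array here too, at -0.31 ± 0.10, which did not pass (SE, limma adjusted p = 0.199).

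The dimmer probe set of Gclm rose by 1.09 ± 0.18 in wild type (SE, limma adjusted p = 0.0135 over all probe sets). The null arrays of that probe set read 8.93, 8.77 and 9.36 with vehicle and 9.49, 9.63 and 9.79 with CDDO-Im. There it did separate the treatments, unlike the main one, but the difference of 0.62 ± 0.18 did not pass (SE, limma adjusted p = 0.0897). The effect in wild type exceeded that in Nrf2 null livers by 0.71 ± 0.14 by the main probe set (SE, limma adjusted p = 0.133) and by 0.47 ± 0.26 by the dimmer one (SE, adjusted p = 0.861), and neither passed.

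By the log2 intensity of its main probe set Gclc moved more than Gclm between treatments in both genotypes. Probe sets of different genes can differ in response, so this describes the readings and not transcript amounts. The log2 value of Gclc minus that of Gclm within an array, each centred on its own 12-array mean, was -0.86, -0.48 and -0.25 in wild type with vehicle and 1.44, 1.41 and 1.63 with CDDO-Im. Among null arrays it was -1.19, -1.03 and -0.71 with vehicle and -0.44, 0.19 and 0.32 with CDDO-Im. This signed value was higher on every CDDO-Im array than on every vehicle array of its genotype, by 2.02 in wild type and 0.999 in the null. The two-sided exact permutation p of 0.1 in each is the smallest that 3 against 3 arrays allow, so neither could pass. By the dimmer probe sets of both genes, compared after seeing the data, the rises were 1.46 and 0.45, again with no overlap.

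Gss (Entrez Gene 14854), which completes the tripeptide, read 8.60, 8.67 and 8.58 in wild type with vehicle and 9.01, 8.89 and 8.83 with CDDO-Im. The treated arrays were higher, but the difference was small, 0.29 ± 0.09, and did not pass (SE, limma adjusted p = 0.123). Nrf2 null livers read 8.81, 8.92 and 9.13 with vehicle and 8.78, 8.87 and 8.85 with CDDO-Im, which overlapped. Under vehicle the null arrays all lay above the wild type arrays, the opposite order to Gclc and Gclm, by 0.33 ± 0.09 (SE, limma adjusted p = 0.128). Its dimmer probe set gave 0.16 ± 0.09 for CDDO-Im in wild type and 0.24 ± 0.09 for the genotype under vehicle (SE), and read lower on every treated null array than on every null vehicle array, at -0.28 ± 0.09 (limma adjusted p = 0.129). Gss is on chromosome 2, as is Nfe2l2, and whether that position bears on the genotype difference was not tested.

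**Figure D2:**
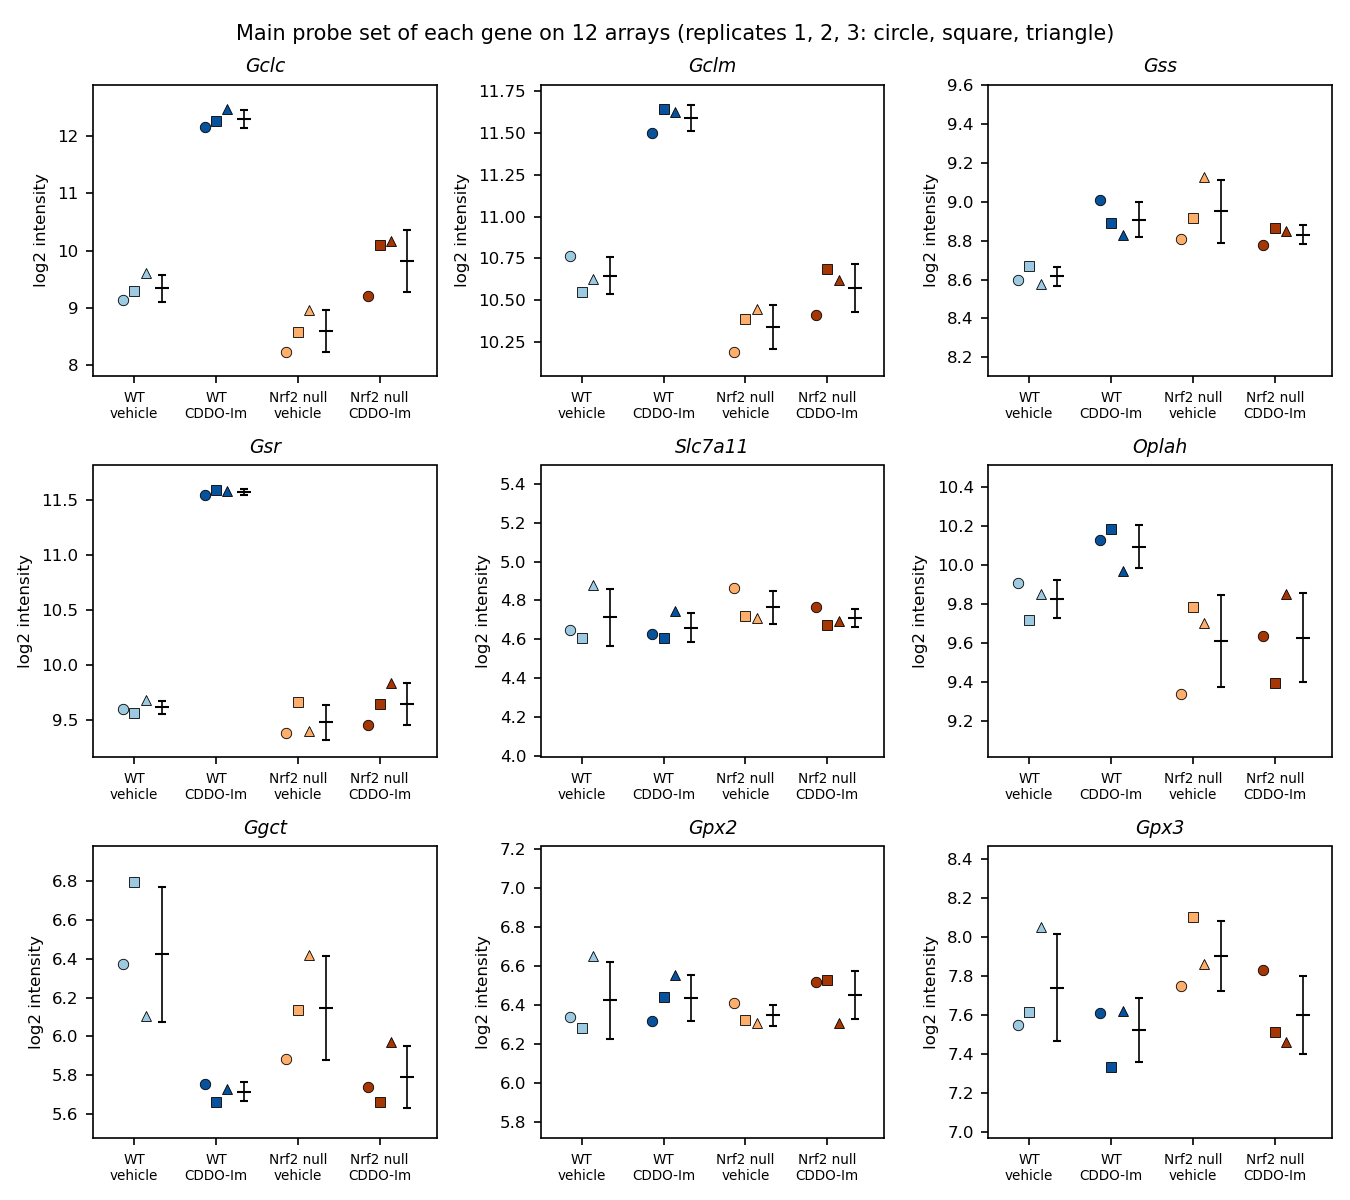
Log2 intensity (y axis, own scale in each panel) of the main probe set of the 9 genes on each of the 12 arrays, by group; circles, squares and triangles are replicates 1, 2 and 3, and the bar beside each group is the mean ± SD. In wild type with CDDO-Im Gclc (12.16 to 12.48), Gclm (11.50 to 11.64) and Gsr (11.55 to 11.60) sit above every other array, while Slc7a11 stays between 4.61 and 4.88 throughout.

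Gsr (Entrez Gene 14782, chromosome 8), the reductase that recycles oxidised glutathione, read 9.60, 9.56 and 9.68 in wild type with vehicle and 11.55, 11.60 and 11.58 with CDDO-Im. The treated arrays lay close together, and the rise was 1.96 ± 0.10 (SE, 3.90-fold, limma adjusted p = 1.1e-06). Null arrays of Gsr read 9.38, 9.66 and 9.39 with vehicle and 9.45, 9.64 and 9.83 with CDDO-Im. The groups overlapped, and the 95% confidence interval of the difference was -0.06 to 0.39 around 0.17 (limma adjusted p = 0.436). Under CDDO-Im Gsr was 3.82-fold lower in Nrf2 null than in wild type livers (-1.93 ± 0.10, SE, limma adjusted p = 1.08e-06).

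Wild type livers with CDDO-Im therefore held the only Gsr arrays above 9.83, and the other 3 groups, at 9.61 ± 0.06, 9.48 ± 0.16 and 9.64 ± 0.19 (SD, n = 3 each), overlapped one another. The interaction was 1.80 ± 0.15 (SE, limma adjusted p = 0.000122). A dimmer probe set of Gsr rose by 1.74 ± 0.11 in wild type, with an interaction of 1.54 ± 0.16 (SE, limma adjusted p = 0.00168 over all probe sets). In Nrf2 null livers it differed by 0.20 ± 0.11, which did not pass (SE, limma adjusted p = 0.455). Unlike the main one it separated the null treatments, but barely, with the highest vehicle array at 9.101 and the lowest CDDO-Im array at 9.103. Under vehicle Gsr was not distinguished between genotypes (-0.14 ± 0.10, SE, limma adjusted p = 0.619, 95% confidence interval -0.36 to 0.09).

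**Figure D3:**
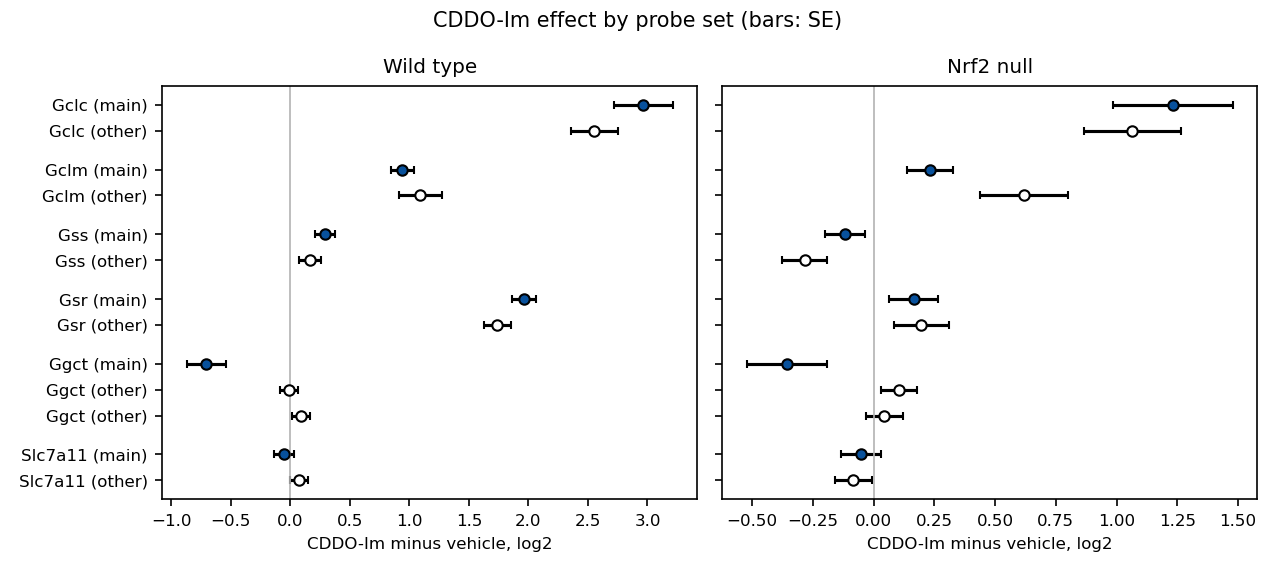
CDDO-Im minus vehicle in log2 (x axis, scale differs between panels) for every probe set of the 6 genes that have more than 1, in wild type (left) and Nrf2 null livers (right); filled points are the main probe sets, and bars are SE. The probe sets of Gclc (2.97 and 2.55), Gclm (0.94 and 1.09) and Gsr (1.96 and 1.74) lie close together in wild type, whereas of Ggct only the main probe set lies away from 0, at -0.71.

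Slc7a11 (Entrez Gene 26570) encodes the cystine carrier of system xc-, which brings in cystine in exchange for glutamate, and hepatocytes are known to make much of their cysteine from methionine instead. Its main probe set read 4.61 to 4.88 on the 12 arrays and its other probe set 4.22 to 4.52, both below the array median on every array. Detection calls were not used here, and no level or fold is read from values this low. The measured difference was -0.05 in wild type and -0.05 in Nrf2 null livers (limma adjusted p = 0.883 and 0.812).

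Oplah and Ggct belong to the gamma-glutamyl cycle, in which Ggct, gamma-glutamylcyclotransferase, releases 5-oxoproline and Oplah, 5-oxoprolinase, opens it to glutamate. Oplah (Entrez Gene 75475) read 9.91, 9.72 and 9.85 in wild type with vehicle and 10.13, 10.18 and 9.97 with CDDO-Im. The treated arrays were higher in all 3 cases, by 0.27 ± 0.13, which did not pass (SE, limma adjusted p = 0.414). Nrf2 null livers read 9.34, 9.78 and 9.70 with vehicle and 9.64, 9.40 and 9.85 with CDDO-Im, and overlapped. Under CDDO-Im every null array was below every wild type array, at -0.47 ± 0.13 (SE, limma adjusted p = 0.136).

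Ggct (Entrez Gene 110175) was the 1 gene of the 9 whose wild type CDDO-Im arrays all lay below the vehicle arrays. It read 6.37, 6.79 and 6.10 with vehicle and 5.76, 5.66 and 5.73 with CDDO-Im, the latter below the array medians. The difference was -0.71 ± 0.17 and just missed the threshold (SE, limma adjusted p = 0.0576). Wild type vehicle replicate 3, which carried acinar transcripts, read lowest of its group, 0.48 below the mean of the other arrays. Without it the difference was -0.87 and passed (adjusted p = 0.00508). In 16 of 20 alternatives the difference did not pass (adjusted p up to 0.219), and with 1 array left out it ran from -0.87 to -0.52. Nrf2 null vehicle replicate 2, which carried acinar transcripts too, read 6.14, between the others of its group. Whether those transcripts bear on Ggct was not tested. The null arrays of Ggct read 5.89, 6.14 and 6.42 with vehicle and 5.74, 5.66 and 5.97 with CDDO-Im. These groups overlapped, with a difference of -0.36 ± 0.17 (SE, limma adjusted p = 0.267). The remaining probe sets of Ggct, dimmer on average, gave -0.01 and 0.09 in wild type and 0.10 and 0.04 in Nrf2 null livers, so the probe sets did not move together.

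The peroxidases Gpx2 and Gpx3 are selenoproteins, the former typical of gut epithelium and the latter secreted into plasma, chiefly by the kidney. Gpx2 (Entrez Gene 14776) ranged from 6.28 to 6.65 over the 12 arrays, with CDDO-Im minus vehicle at 0.01 in wild type (95% confidence interval -0.22 to 0.24) and 0.10 in Nrf2 null livers (-0.13 to 0.34). Gpx3 (Entrez Gene 14778) ranged from 7.33 to 8.10, with -0.22 in wild type (95% confidence interval -0.55 to 0.11) and -0.30 in Nrf2 null livers (-0.63 to 0.03). None of these passed, and the arrays of the groups overlapped in every comparison. In wild type vehicle replicate 3 Gpx2 and Gpx3 read 0.34 and 0.47 above the mean of the other arrays of the group, and Gclc 0.39 above.

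Leaving out both arrays that carried acinar transcripts left the calls of the 3 risers in place. The wild type differences were then 3.10 for Gclc, 0.93 for Gclm and 2.00 for Gsr (limma adjusted p = 6.69e-05, 0.000657 and 1.51e-06). Gclc in Nrf2 null livers differed by 1.23 (adjusted p = 0.0258), and the Gsr interaction was 1.74 (adjusted p = 0.000432).

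Around these genes, 5 lists of other glutathione and sulfur amino acid genes held 42 names, of which 39 were measured. These lists too were chosen with earlier results of these data known. In wild type livers CDDO-Im raised 4 of the 39 and lowered 1, where 1.82% of all genes were called. In the null it raised 2 and lowered 1, close to the 5.90% of all genes called there. Between genotypes under CDDO-Im 1 was higher and 3 were lower in the null, where 1.45% of all genes were called. Under vehicle and for the interaction 0 were called by limma. The median difference of the 39 was 0.02 in wild type and 0.02 in Nrf2 null livers, and that of all genes 0.0058 and -0.0050.

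Among 9 measured genes of cysteine supply and the methionine cycle 1 rose and 1 fell in wild type livers. Csad, which makes the taurine precursor hypotaurine from a cysteine product, read 9.19, 8.64 and 9.82 with vehicle and 11.63, 11.37 and 11.27 with CDDO-Im. The groups were well apart, and the rise was 2.20 ± 0.31 (SE, limma adjusted p = 0.00436). Null livers went from 8.49, 8.62 and 7.81 to 8.98, 10.02 and 9.39, which did not overlap, and the difference of 1.16 ± 0.31 just missed the threshold (SE, limma adjusted p = 0.0525). That difference passed without wild type vehicle replicates 2 or 3 or Nrf2 null CDDO-Im replicate 1, but in 13 of 20 alternatives it did not (adjusted p up to 0.178). With 1 array left out it ran from 0.88 to 1.40. Bhmt, which remethylates homocysteine with betaine and so competes with cysteine synthesis for it, read 13.18, 13.14 and 13.64 in wild type with vehicle and 12.14, 12.04 and 12.54 with CDDO-Im. It fell by 1.08 ± 0.15 (SE, limma adjusted p = 0.0034), a call lost in a fit of those 6 arrays alone (adjusted p = 0.0589). Bhmt in the null differed by -0.17 ± 0.15 (SE, adjusted p = 0.625). Under CDDO-Im the null livers had Bhmt higher by 1.17 and Csad lower, at -1.96 (limma adjusted p = 0.00162 and 0.00788). Neither interaction passed (limma adjusted p = 0.221 for Bhmt and 0.668 for Csad). The transsulfuration enzymes Cbs and Cth did not pass in any comparison.

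Of 9 transporters of amino acids or glutathione only Slc6a9, a glycine carrier, was called. It rose by 0.61 ± 0.11 in wild type (SE, limma adjusted p = 0.0148) and 0.46 ± 0.11 in Nrf2 null livers (adjusted p = 0.0306), and under CDDO-Im it was lower in the null, at -0.66 (adjusted p = 0.00855). Under vehicle Slc6a9 was also lower on every null array than on every wild type array, at -0.51, which did not pass (limma adjusted p = 0.0727). It passed without wild type vehicle replicate 3 (adjusted p = 0.0229) or Nrf2 null vehicle replicate 3 (0.0421), but in 17 of 20 alternatives it did not (up to 0.279). The interaction of Slc6a9 was 0.15 (adjusted p = 0.92). The call in wild type was lost without wild type vehicle replicate 1 or wild type CDDO-Im replicate 2, and with the compared arrays only (adjusted p up to 0.0773). That in the null was lost without Nrf2 null vehicle replicates 1 or 2 or any of the Nrf2 null CDDO-Im arrays (adjusted p up to 0.112). Slc3a2, the partner chain of Slc7a11, did not pass in any comparison.

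Of 9 measured genes of glutathione breakdown Ggt6 alone was called, lower by 0.59 ± 0.16 in Nrf2 null livers (SE, limma adjusted p = 0.048), and in wild type it differed by -0.47 (adjusted p = 0.179). The call was lost for 9 of the 12 arrays left out in turn, all but wild type vehicle replicates 1 and 3 and Nrf2 null CDDO-Im replicate 1 (adjusted p up to 0.187). It was also lost without both arrays with acinar transcripts, with the compared arrays only, with every probe set tested and with the most variable probe set of each gene. Testing every probe set or the most variable ones kept the same probe set for Ggt6, so only the rest of the fit differed. Among 6 other peroxidases Gpx4, which reduces lipid peroxides in membranes, rose by 0.73 ± 0.17 in wild type (SE, limma adjusted p = 0.049). That call was lost without any 1 array other than wild type vehicle replicate 3 (adjusted p up to 0.231). It was also lost with the replicate block, the compared arrays only, every probe set tested and the most variable probe set of each gene. Those probe set settings left the probe set of Gpx4 unchanged, and only the rest of the fit differed. Under CDDO-Im Gpx4 was lower in the null, at -0.83 (limma adjusted p = 0.0304), which was lost without wild type CDDO-Im replicates 1 or 3 or any Nrf2 null CDDO-Im array (adjusted p up to 0.115). Gpx1, the main cytosolic peroxidase, read 13.34, 13.20 and 13.30 in Nrf2 null livers with vehicle and 13.52, 13.57 and 13.57 with CDDO-Im, a small rise of 0.28 ± 0.06 (SE, limma adjusted p = 0.029). Gpx1 in wild type differed by 0.04 (adjusted p = 0.868). The null call was lost without Nrf2 null vehicle replicates 1 or 2 or Nrf2 null CDDO-Im replicates 2 or 3 (adjusted p up to 0.111). It was also lost without both arrays with acinar transcripts and with the compared arrays only. Of 6 measured glutaredoxins and glyoxalases Glrx5, a mitochondrial glutaredoxin of iron-sulfur cluster assembly, rose by 0.63 ± 0.12 in wild type (SE, limma adjusted p = 0.0195). Without wild type vehicle replicates 1 or 2 or wild type CDDO-Im replicates 1 or 3 it did not pass (adjusted p up to 0.0994). Nor did it pass with the compared arrays only.

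**Figure D4:**
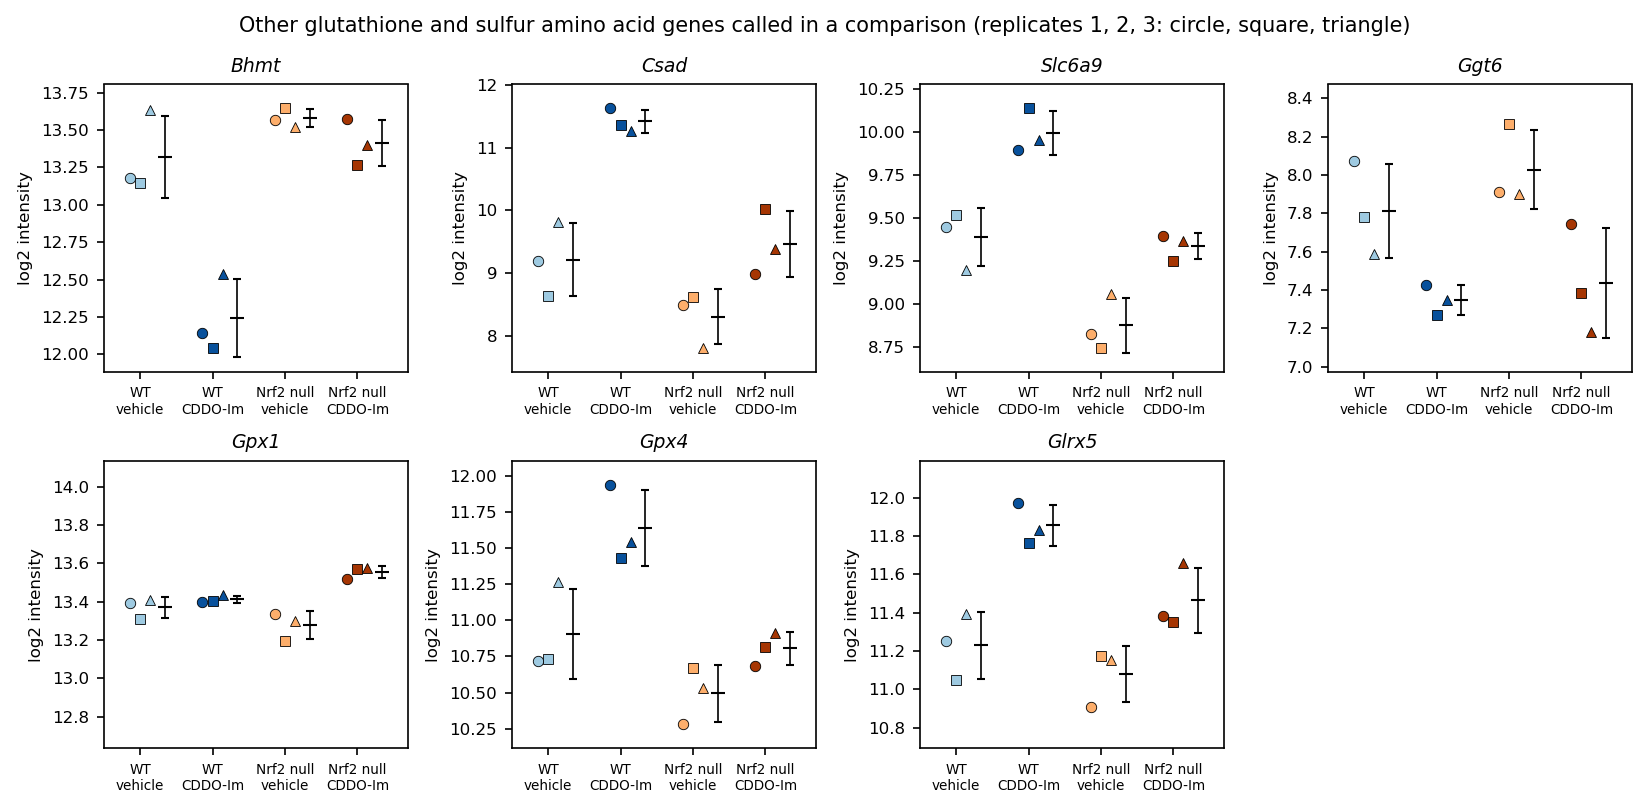
Log2 intensity (y axis, own scale in each panel) on each of the 12 arrays, by group, of the 7 genes called in any comparison among 39 other glutathione and sulfur amino acid genes; circles, squares and triangles are replicates 1, 2 and 3, and bars are the mean ± SD. Csad in wild type with CDDO-Im (11.27 to 11.63) lies above all other arrays and Bhmt there (12.04 to 12.54) below them, and the other 5 genes move by less than 1.

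The genes most like each riser over the 12 arrays were found by the root mean square difference of log2 values, each gene centred on its own mean. For Gclc they were Ephx1 (0.32), Gstm1 (0.36) and Gbe1 (0.40), beside a root mean square of 1.42 for Gclc about its own mean. For Gclm they were Txn1 (0.12), Tbcel (0.13) and Fam162a (0.15), beside 0.49. For Gsr they were Cbr3 (0.16), Nqo1 (0.21) and Ugt2b35 (0.26), beside 0.87. The genes listed with Gclc had effects of 0.87 to 1.34 in Nrf2 null livers, those listed with Gclm 0.17 to 0.39 and those listed with Gsr 0.04 to 0.27. All were picked for likeness on these same arrays, so effects near those of Gclc, Gclm and Gsr follow from the choice. These values share the 12 arrays and the choice of group means, and they describe the profiles only.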

How the data were processed

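Log2 intensities of 45101 probe sets on 12 single-colour Affymetrix arrays were used as deposited by the authors. RMA made them, going by the submitters' processing notes, and its version is not given in the sources used here. RMA fits probes on a log scale and tends to compress differences of dim or very bright probe sets. Of the probe sets 64 were controls, 34945 named 1 gene, 932 several and 9160 none. Entrez Gene ids matched 34741 and changed 0 symbols (GRCm38.p6 annotation).

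One alternative, the dimmer probe sets of Gclc and Gclm, was chosen after seeing the data. A gene's brightest single-gene probe set on average stood for it. A mean per group was fitted to 18193 genes with limma 3.58.1 (R 4.3.3, statmod 1.5.0). The moderated two-sided test with Benjamini-Hochberg adjustment over all genes was used in 5 comparisons, with 8 residual and 3.81 prior degrees of freedom, and 95% intervals come from it. Other probe sets were adjusted over all non-control probe sets. Groups came from the titles. Named genes were the 9 members, Nfe2l2, up to 4 called genes of each of 5 lists and the 3 most like genes of each called member. Cbs, Cth and Slc3a2 were named as members of those lists after their values were seen. There were 8 marker lists. The members and lists were chosen with earlier results of these data known. Of the methods only the limma fit was tested on simulated data, with independent noise and shifts added to the wild type CDDO-Im group. Alternatives were leaving out arrays, a replicate block, array weights, fewer arrays, every probe set, the most variable probe set, a filter on dim genes and quantile normalization. The number of arrays limits the precision.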

Additional observations from a re-analysis of the deposited data

Results flagged for a closer look

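The effect of CDDO-Im on Gsr differed between genotypes by limma's interaction test, with the wild type effect 1.80 above the Nrf2 null effect (limma adjusted p = 0.000122). By the main probe set all 3 treated wild type arrays lay above all vehicle arrays, and the Nrf2 null groups overlapped. By the dimmer probe set the null groups were barely apart. Groups of 3 arrays were not tested for single outlying arrays.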

How the results depend on the processing

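Of 45 results (9 genes in 5 comparisons) 38 kept their side of the threshold under every alternative run, 7 did not, and none that passed changed sign. Counts of the 9 genes called, with 1 array left out, ran from 3 to 4 in wild type, 0 to 1 in Nrf2 null livers, 0 to 0 under vehicle, 3 to 3 under CDDO-Im and 1 to 1 for the interaction. With array weights they were 5 in wild type (Gss and Ggct added), 2 under vehicle (Gclm and Gss) and 2 for the interaction (Gclc added, adjusted p = 0.025), and with quantile normalization 1 under vehicle (Gss, adjusted p = 0.0177) and 2 for the interaction (Gclm added, adjusted p = 0.0413). The deviations of same-numbered arrays correlated over 0.1 in 4 of 18 pairs (-0.30 to 0.28), and 2 of 12 arrays correlated best with their own number. These correlations gave no sign of pairing by replicate number, but with 3 arrays per group they cannot exclude it. By its main probe set Gclc rose with the replicate number in every group. With the replicate block the interaction count was 2 (Gclc added, adjusted p = 0.00831, beside 0.155 without it), the block changed no other call of the 9 genes, and it ended the calls of Gpx4 in wild type and Slc6a9 in Nrf2 null livers. Over the alternatives the adjusted p of the Gclc interaction ran from 0.00831 to 0.403, that of Gclm from 0.0413 to 0.797, and that of Ggct in wild type from 0.00508 to 0.219 (0.0473 when dim genes, Slc7a11 among them, were left out). Of 35 results on the 7 other named genes 24 kept their side.

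All genes called numbered 332 in wild type, 1074 in Nrf2 null livers, 71 under vehicle, 263 under CDDO-Im and 25 for the interaction. With 1 array left out these ran from 104 (without wild type vehicle replicate 1) to 1385 (without wild type vehicle replicate 3), 97 (without Nrf2 null CDDO-Im replicate 3) to 1615 (without wild type vehicle replicate 3), 19 to 219, 151 to 464 and 15 to 46. With array weights they were 2023, 1897 and 1477 in the first 3 comparisons and 89 for the interaction. Without both arrays that carried acinar transcripts they were 1293 in wild type, 117 under vehicle, 411 under CDDO-Im and 39 for the interaction. With the compared arrays only they were 110 in wild type and 18 under vehicle, and with every probe set tested 549 in wild type, 467 under CDDO-Im and 57 for the interaction. The causes were not tested. The shares of all genes printed beside the counts move with these numbers.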
